A study of Mus musculus with 9 samples.

Results

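The mitochondrial respiratory chain and ATP synthase were examined in 3 phagocyte populations sorted from mouse Peyer's patches, the lymphoid organs of the small intestine. The members were the genes whose symbol begins with Nduf, Uqcr, Cox4, Cox5, Cox6, Cox7, Cox8 or Atp5, together with Sdha, Sdhb, Sdhc and Sdhd. Only transcript clusters (the array's unit, a set of probes for 1 transcript region) that the platform annotation gives a single symbol were used, and the brightest cluster stood for a gene with several. This gave 89 genes of 22180 with a single-symbol cluster: 70 subunits of the nuclear-encoded chain, 8 complex I assembly factors (Ndufaf1 to Ndufaf8), 8 isoforms of restricted tissue expression, the supercomplex factor Cox7a2l and 2 pseudogenes. The subunits comprised 32 of complex I, 4 of complex II, 7 of complex III, 10 of complex IV (with Ndufa4, once assigned to complex I) and 17 of complex V. A further 9 family symbols, Cox6c, Ndufb2, Ndufb4 and Ndufs6 among them, lie only on clusters with several symbols and were not members. None of the 13 subunits encoded in mitochondrial DNA was matched to a single-symbol cluster, so the values below concern nuclear-encoded genes.

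Total RNA was measured in 3 populations with 3 arrays each: LysoMac, C5aR+ LysoDC and C5aR- LysoDC. LysoMac and LysoDC are the lysozyme-expressing macrophages and dendritic cells of the Peyer's patch, and C5aR is the receptor for the complement fragment C5a. All cells were freed with collagenase and DNase, enriched on CD11c beads and sorted by flow cytometry with antibodies that included C5aR, CD4 and MHC class II. No treatment or genetic change separates the groups per the labels, and the sources used here do not give the strain, age or sex of the mice, the number of animals behind an array or what a replicate number marks. Arrays of 1 population are not stated to be different animals, and the spread that each p-value is based on may therefore be technical. In sorted bulk RNA, fewer cells of a type and less RNA per cell cannot be told apart.

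The respiratory chain passes electrons from NADH (through complex I) and succinate (through complex II) by way of ubiquinone to complex III, then by cytochrome c to complex IV, which reduces oxygen. Complexes I, III and IV pump protons across the inner mitochondrial membrane, and the ATP synthase, complex V, makes ATP as protons flow back. Macrophages and dendritic cells are known to shift between respiration and glycolysis on activation, and succinate oxidation at complex II has been linked to macrophage inflammatory signalling.

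Defining transcripts went only in part in the direction of the labels. C5ar1 (the receptor used in the sort) differed by 1.67 ± 0.29 (SE) log2 units between C5aR+ and C5aR- LysoDC, higher in the former on every array, with a limma adjusted p of 0.105. CD4 and MHC class II were also used in the sort. The class II gene H2-Ab1 differed from LysoMac by 2.34 ± 0.13 in C5aR+ and 2.39 ± 0.13 in C5aR- LysoDC (limma adjusted p = 1.9e-04 and 1.1e-04). Cd4 differed by -2.39 ± 0.36 and -2.69 ± 0.36 (limma adjusted p = 0.104 and 0.00964). Of 9 conventional dendritic cell markers, 5 passed the test as higher in C5aR- LysoDC than in LysoMac, and of 9 macrophage markers 4 passed as lower. In that comparison 1 dendritic cell marker lay below 0 and 2 macrophage markers above 0, 1 of each at an unadjusted limma p under 0.05. Between C5aR+ LysoDC and LysoMac 0 of either list passed. There 7 dendritic cell markers were above 0 and 2 below, and 4 macrophage markers above and 5 below. Between C5aR+ and C5aR- LysoDC all 9 macrophage markers were above 0 (median 0.87, 6 at an unadjusted limma p under 0.05). Of the dendritic cell markers 7 were below 0 and 2 above in that comparison, and Flt3 and Itgae passed as lower in C5aR+ LysoDC. Markers of other cells also differed. Of 5 B cell markers measured, Blk passed as higher in C5aR- LysoDC than in LysoMac, and so did 1 of 4 plasma cell markers, Jchain. The log2 of the summed B cell signal was 7.20 to 8.08 on LysoMac arrays, 7.62 to 8.08 on those of C5aR+ cells and 7.49 to 7.87 on those of C5aR- cells, and for the plasma cell list 8.12 to 8.76, 8.67 to 9.24 and 8.78 to 9.20. Of 7 epithelial markers, Epcam and Cdh1 passed as higher in C5aR- LysoDC than in LysoMac (summed signal 7.22 to 7.93 against 6.48 to 6.98), 3 of the 7 being below every array median. In that comparison 4 of the 7 were above 0 and 3 below, 1 of those below at an unadjusted limma p under 0.05. The part of these cells in the values below was not tested. LysoMac array 2 stood apart, with an interquartile range of 2.16 log2 units against 2.48 to 2.68 on the other 8 arrays. Most counts of members and the medians by complex against LysoMac are also given without it, as are some of the single differences it moves most. Counts of confidence intervals are not, nor are medians of assembly factors, of subunits with a mean above 7, by promoter motif or of other gene lists.

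No member of the respiratory chain passed the test in any comparison. The test was limma on the log2 values of all 33793 transcript clusters, with p-values adjusted over all of them by Benjamini-Hochberg and a threshold of 0.05. Between C5aR+ and C5aR- LysoDC 0 of 89 members passed, where 0.101% of all clusters did. Between C5aR+ LysoDC and LysoMac 0 of 89 passed, against 0.0503% of all clusters. Between C5aR- LysoDC and LysoMac 0 of 89 passed, against 1.53%, and in the F test over the 3 populations 0 passed, against 0.755%. At these shares of all clusters few or no members would be called in a list of this size. Clusters with a mean above 7 on the log2 scale passed more often against LysoMac. Of 2559 such clusters, 87 passed as higher and 38 as lower in C5aR- LysoDC, where 0 of 46 subunits with such a mean did. In C5aR+ LysoDC against LysoMac 9 passed as higher and 0 as lower. Whether the count of 0 sets the chain apart was not tested.

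At an unadjusted p under 0.05, which is not a call, 0 of 89 members were reached between the LysoDC populations by limma, against 5.46% of all clusters. Against LysoMac 9 members reached it in C5aR+ LysoDC (10.1% of members, 6.19% of clusters), 8 with a higher value (3.54% of clusters) and 1 with a lower one (2.65% of clusters). In C5aR- LysoDC 9 also reached it (10.1% of members, 13.2% of clusters), 8 with a higher value (7.26% of clusters) and 1 with a lower one (5.89% of clusters). In the F test 5 members reached it (5.62%, against 9.2% of clusters). These counts depend on single LysoMac arrays: without array 2 they were 2 higher and 0 lower in C5aR+ LysoDC and 6 higher and 2 lower in C5aR- LysoDC, and without array 3 they were 17 higher and 1 lower and 20 higher and 3 lower. Ndufa12, Ndufb7, Ndufs4, Cox6b2, Cox5b, Ndufa4 and Atp5md were among the higher members in both, which share the LysoMac arrays. The 3 arrays of each population did not overlap for 4 members between C5aR+ and C5aR- LysoDC (4.49%, against 10.2% of all clusters). They did not overlap for 10 members between C5aR+ LysoDC and LysoMac (11.2%, against 7.89%), nor for 11 between C5aR- LysoDC and LysoMac (12.4%, against 14.2%). Without LysoMac array 2, which leaves 2 arrays there, the numbers were 13 (14.6%, against 15.1%) and 16 (18%, against 22.3%). With all arrays, 18.2%, 13.2% and 30.1% of clusters with a mean above 7 did not overlap, in the order of the 3 comparisons. For subunits with such a mean the shares were 2.17%, 10.9% and 10.9%.

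The size of difference that the arrays leave possible was limited. The median standard error of a member's difference was 0.21 log2 units. The 95% confidence interval lay wholly between -1 and 1, less than a doubling either way, for 78 of 89 members between the LysoDC populations. It did so for 75 members between C5aR+ LysoDC and LysoMac and for 68 between C5aR- LysoDC and LysoMac. Of all 33793 clusters it did so for 28342, 27558 and 25640, in the same order of comparisons.

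By complex, the differences between C5aR+ and C5aR- LysoDC were centred near 0. The median over the 70 subunits was 0.03 log2 units, with 40 of 70 above 0, beside 0.02 and 53.3% for all clusters. The medians were 0.02 for complex I, -0.04 for complex II, 0.04 for complex III, 0.03 for complex IV and 0.03 for complex V. Against LysoMac the subunit medians were 0.16 in C5aR+ LysoDC (57 of 70 above 0; all clusters -0.04, with 43.9% above 0) and 0.14 in C5aR- LysoDC (47 of 70 above 0; all clusters -0.06, with 41.3% above 0). In C5aR+ LysoDC the medians against LysoMac ran from 0.13 in complex IV to 0.23 in complex II, and in C5aR- LysoDC from -0.01 in complex IV to 0.33 in complex II. This order changed with single LysoMac arrays. Without array 2 the medians in C5aR+ LysoDC were 0.05 for complex I, -0.16 for II, 0.02 for III, -0.02 for IV and 0.04 for V. In C5aR- LysoDC they were then 0.00 for complex I, -0.01 for II, 0.06 for III, -0.08 for IV and 0.09 for V. Without array 1 the lowest median in C5aR+ LysoDC was that of complex III, at 0.13, with 0.26 for IV and 0.27 for II. Complex II has only 4 genes, and in C5aR- LysoDC 2 lay above 0 and 2 below with all arrays.

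These positive medians were no larger than those of all bright clusters, the subunits included, and were near 0 under some other scalings. Subunit genes are bright: 46 of 70 had a mean above 7 on the log2 scale, against 2559 of 33793 clusters. Against LysoMac these 46 had a median of 0.20 in C5aR+ LysoDC, and all 2559 bright clusters 0.21. In C5aR- LysoDC the values were 0.20 for the 46 subunits and 0.24 for all bright clusters. The share above 0 was larger in the 46 subunits, at 87.0% against 73.6% of bright clusters in C5aR+ LysoDC and 73.9% against 66.6% in C5aR- LysoDC. After quantile normalization of the deposited values the subunit medians against LysoMac were 0.02 (40 of 70 above 0) and -0.01 (34 of 70 above 0), and after cyclic loess 0.01 (36 of 70) and 0.00 (36 of 70). Without LysoMac array 2 they were 0.04 (43 of 70) and 0.03 (36 of 70). Centring each array on its median gave 0.21 in both.

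**Figure D1:**
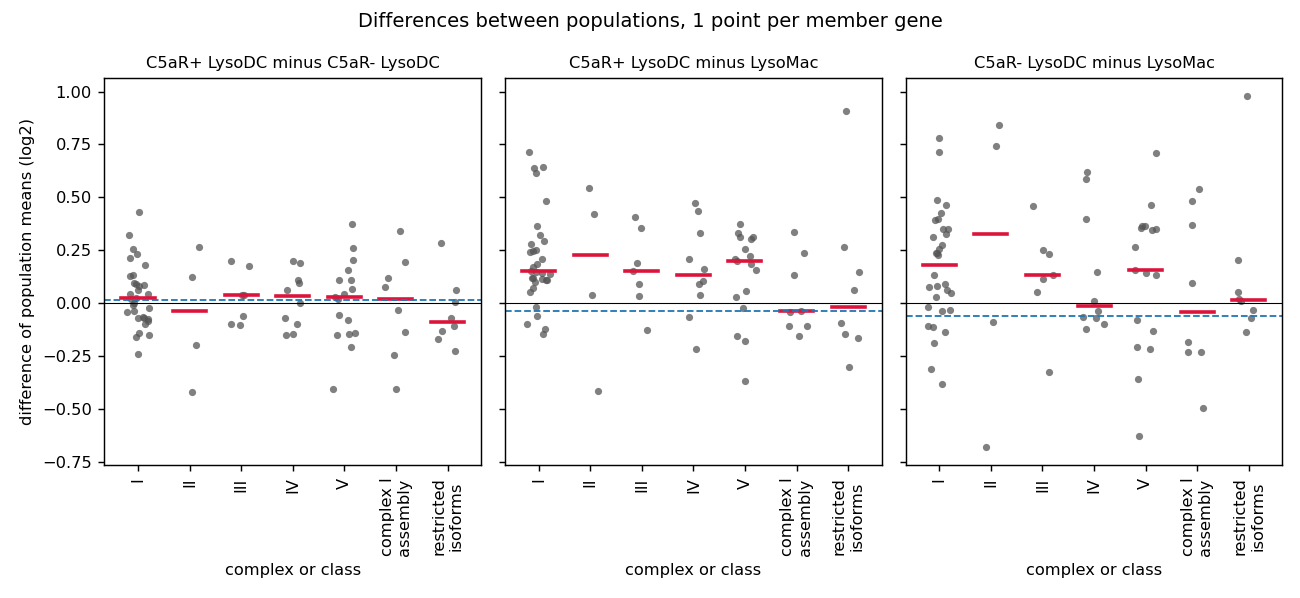
Difference of population means (log2, vertical axis) for 1 member gene per point, by complex or class, in the 3 comparisons; red bars are class medians and the dashed line the median of all clusters. Points scatter around 0 on the left (subunit median 0.03) and lie mostly above 0 against LysoMac (57 and 47 of 70 subunits), where Cox6b2 is the highest point at 0.91 and 0.98.

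LysoMac array 2 carried most of the shift. There the subunits lay a median of 0.37 log2 units below their own 9-array means (deviation -0.37), and it was the lowest of the 9 arrays for 39 of 70 subunits (55.7%, against 17.8% of all clusters). The deviation on that array was -0.34 for complex I, -0.79 for complex II, -0.53 for complex III, -0.40 for complex IV and -0.26 for complex V, and -0.42 for all bright clusters. The subunits varied most among LysoMac arrays, with a median SD of 0.34, where the C5aR+ cells had 0.20 and the C5aR- cells 0.17 (n = 3 each). The same held for all clusters, with 0.28, 0.19 and 0.18. The highest SD was in LysoMac for 52 of 70 subunits (74.3%), 54.9% of all clusters and 67.1% of bright clusters.

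**Figure D2:**
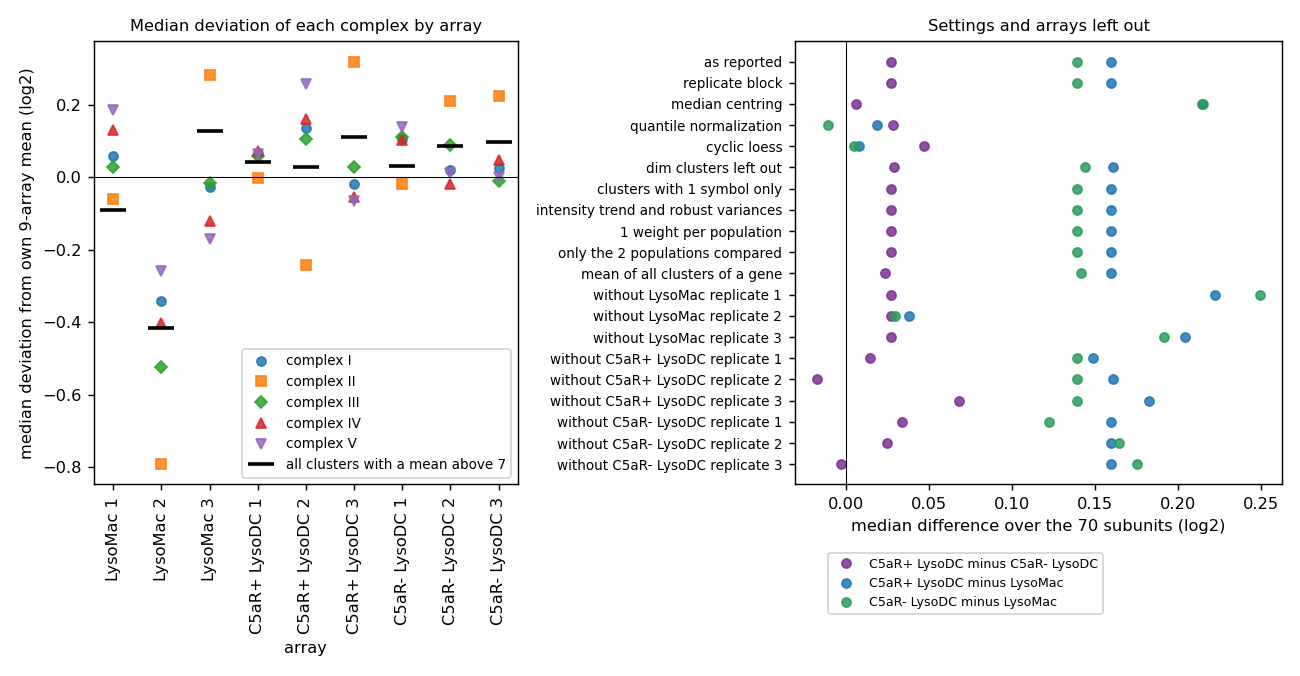
Left, the median log2 deviation of each complex from its genes' own 9-array means, by array, with black bars for all clusters with a mean above 7. Right, the median difference over the 70 subunits (log2) in each comparison under each setting or with 1 array left out; LysoMac 2 lies lowest on the left, and on the right both comparisons with LysoMac fall to 0.04 and 0.03 without it.

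Promoters were examined for motifs of factors known to act on respiratory genes, and those of Sdha, Sdhd, Atp5h and Cox6b2 are shown because the difference of C5aR- LysoDC from LysoMac was above 0 in Sdha and Atp5h and below 0 in Sdhd, and largest of all members in Cox6b2. Windows ran from 250 bases before to 50 after the start of each gene (RefSeq, GRCm38.p6), and 72 of 89 members, 60 of them subunits, had one. The motifs were, for NRF-1, GCGCA and GCGC with any single base between them, CCGGAAG for the ETS factor GABP and ATGGCGG for YY1, each searched on both strands. They were settled after 9 spellings had been tried, so the shares below are not independent of that choice. Shares among other bright genes were not computed. NRF-1 matches were in 15 of 60 subunit windows (25%, against 5.19% of 27025 genes), ETS matches in 17 (28.3%, against 9.93%) and YY1 matches in 9 (15%, against 4.69%). The 250 bases before the start follow, on the minus strand for each gene, with NRF-1 or ETS matches in capitals: chr13:74350241-74350490 for Sdha, chr9:50603850-50604099 for Sdhd, chr11:115419920-115420169 for Atp5h and chr7:4753095-4753344 for Cox6b2.
Sdha: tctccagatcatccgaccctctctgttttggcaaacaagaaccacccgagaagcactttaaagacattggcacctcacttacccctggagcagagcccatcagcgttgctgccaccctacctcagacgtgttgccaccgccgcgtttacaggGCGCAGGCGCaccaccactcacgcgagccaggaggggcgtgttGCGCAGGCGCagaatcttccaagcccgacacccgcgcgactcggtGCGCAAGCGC
Sdhd: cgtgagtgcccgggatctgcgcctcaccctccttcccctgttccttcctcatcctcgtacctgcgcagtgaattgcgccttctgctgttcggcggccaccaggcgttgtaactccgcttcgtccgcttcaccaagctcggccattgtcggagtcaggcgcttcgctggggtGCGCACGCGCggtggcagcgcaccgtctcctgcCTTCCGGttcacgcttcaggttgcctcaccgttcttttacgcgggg
Atp5h: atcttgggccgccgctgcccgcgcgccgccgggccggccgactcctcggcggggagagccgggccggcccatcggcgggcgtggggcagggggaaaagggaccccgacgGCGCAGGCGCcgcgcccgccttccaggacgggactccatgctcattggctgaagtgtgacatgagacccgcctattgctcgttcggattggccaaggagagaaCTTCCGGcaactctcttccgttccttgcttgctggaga
Cox6b2: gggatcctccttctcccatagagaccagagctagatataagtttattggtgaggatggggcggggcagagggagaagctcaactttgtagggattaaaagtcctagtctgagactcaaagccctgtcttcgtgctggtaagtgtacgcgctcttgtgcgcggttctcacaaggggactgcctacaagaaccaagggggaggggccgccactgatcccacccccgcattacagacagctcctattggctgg
Sdha holds 3 NRF-1 matches, which begin 98, 55 and 10 bases before the start, and Sdhd and Atp5h each hold 1 NRF-1 and 1 ETS match (CTTCCGG, the reverse strand). Cox6b2 holds none of these letters. The median difference of C5aR- LysoDC from LysoMac was 0.09 in the 15 subunits with an NRF-1 match and 0.13 in the 45 without, 0.03 with and 0.13 without an ETS match, and 0.23 with and 0.09 without a YY1 match. In C5aR+ LysoDC against LysoMac the medians with and without were 0.17 and 0.14 for NRF-1, 0.12 and 0.15 for ETS and 0.11 and 0.15 for YY1. Between C5aR+ and C5aR- LysoDC they were 0.08 and 0.00 for NRF-1, 0.11 and -0.01 for ETS and -0.07 and 0.04 for YY1. These are descriptions with no test.

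In complex I, the NADH dehydrogenase, Ndufs4 and Ndufa12 gave the larger differences between C5aR- LysoDC and LysoMac, and none passed. Ndufa12, an accessory subunit, measured 5.50, 5.02 and 5.60 on the log2 scale on LysoMac arrays 1 to 3, 5.87, 6.22 and 5.95 in C5aR+ LysoDC and 6.24, 6.07 and 5.95 in C5aR- LysoDC. All 6 LysoDC arrays were above all 3 LysoMac arrays. It was 0.71 ± 0.19 (SE) higher in C5aR- LysoDC (1.64-fold, adjusted p = 0.123 by limma) and 0.64 ± 0.19 higher in C5aR+ LysoDC (adjusted p = 0.640). A dimmer second cluster of Ndufa12 differed by 0.16 in C5aR- LysoDC. Ndufs4, a late-assembling subunit whose loss causes complex I deficiency, measured 7.83, 7.05 and 8.42 in LysoMac, 8.45, 8.56 and 8.42 in C5aR+ LysoDC and 8.42, 8.45 and 8.76 in C5aR- LysoDC. LysoMac array 3 reached the LysoDC values and array 2 was far below them, so the populations overlapped. Its difference in C5aR- LysoDC was 0.78 ± 0.30 (adjusted p = 0.308 by limma), and without LysoMac array 3 it was 1.11 ± 0.23 (adjusted p = 0.0453). Without LysoMac array 2 it was 0.42.

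Ndufb7 measured 7.89, 7.32 and 7.88 in LysoMac, 8.11, 8.42 and 7.9992 in C5aR+ LysoDC and 8.04, 8.22 and 8.21 in C5aR- LysoDC, with all LysoDC arrays above LysoMac. The difference from LysoMac was 0.48 ± 0.19 in C5aR+ and 0.46 ± 0.19 in C5aR- LysoDC, and 0.29 and 0.27 without LysoMac array 2. Ndufa1, named for the highest mean log2 value of the complex (values of different probes are not comparable as levels), measured 11.24, 10.88 and 10.94 in LysoMac, 11.22, 11.26 and 10.90 in C5aR+ LysoDC and 11.60, 11.36 and 11.14 in C5aR- LysoDC, which overlap. Ndufc1 had the smallest p of the complex I subunits between the LysoDC populations, at 6.21, 6.25 and 6.0047 in C5aR+ and 5.96, 5.74 and 5.9975 in C5aR- LysoDC, a difference of 0.26 ± 0.14. Its arrays did not overlap, though the closest pair nearly met. Ndufs8, an iron-sulfur subunit, shows how 1 array sets a mean: it measured 7.04, 5.35 and 7.12 in LysoMac, while the 6 LysoDC arrays lay between 6.72 and 7.15. Its differences from LysoMac were 0.64 ± 0.40 in C5aR+ and 0.43 ± 0.40 in C5aR- LysoDC, and 0.06 and -0.15 without that array.

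The complex I assembly factors, which build the complex and are not part of it, had medians of 0.02, -0.04 and -0.04 in C5aR+ against C5aR- LysoDC, C5aR+ LysoDC against LysoMac and C5aR- LysoDC against LysoMac. Ndufaf7, a mitochondrial methyltransferase, measured 5.71, 5.68 and 6.18 in LysoMac, 5.85, 5.63 and 5.63 in C5aR+ LysoDC and 5.39, 5.30 and 5.41 in C5aR- LysoDC. C5aR- LysoDC lay below both other populations on every array. The difference was -0.50 ± 0.16 from LysoMac (adjusted p = 0.237 by limma) and 0.34 ± 0.16 between C5aR+ and C5aR- LysoDC (adjusted p = 0.972). Ndufaf5 had the smallest p of the class between C5aR+ LysoDC and LysoMac, at 0.34 ± 0.21. Its values were 3.37, 3.31 and 3.83 in LysoMac and 3.84, 3.90 and 3.78 in C5aR+ LysoDC, which overlap.

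Complex II, succinate dehydrogenase, is the link between the tricarboxylic acid cycle and the chain, and none of its 4 genes passed the test. Sdha, the flavoprotein that oxidises succinate, measured 7.32, 6.32 and 8.87 in LysoMac, 7.86, 7.45 and 8.48 in C5aR+ LysoDC and 7.99, 8.70 and 8.36 in C5aR- LysoDC. The LysoMac arrays alone spanned the values of all other arrays. The difference of C5aR- LysoDC from LysoMac was 0.84 ± 0.56 (95% confidence interval -0.42 to 2.11, adjusted p = 0.548 by limma), and 0.25 without LysoMac array 2. That of C5aR+ LysoDC was 0.42 ± 0.56, and -0.17 without that array. Sdhb, the iron-sulfur subunit, followed the same order of arrays within LysoMac, at 6.35, 5.62 and 7.28, with 6.71, 6.59 and 7.58 in C5aR+ LysoDC and 6.54, 7.54 and 7.39 in C5aR- LysoDC. Its differences from LysoMac were 0.54 ± 0.45 in C5aR+ and 0.74 ± 0.45 in C5aR- LysoDC, and 0.14 and 0.34 without LysoMac array 2, and the populations overlapped.

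Sdhd and Sdhc anchor complex II in the membrane. Sdhd measured 7.73, 6.63 and 6.83 in LysoMac, 6.76, 6.93 and 6.25 in C5aR+ LysoDC and 6.61, 6.05 and 6.48 in C5aR- LysoDC. All C5aR- LysoDC arrays lay below all LysoMac arrays, by as little as the gap between 6.61 and 6.63, and LysoMac array 1 was the highest. The difference was -0.68 ± 0.31 (adjusted p = 0.387 by limma), and -0.35 without LysoMac array 1. No test of a difference between complex II genes was made. Sdhc differed by -0.09 ± 0.22 from LysoMac in C5aR- LysoDC and by 0.04 ± 0.22 in C5aR+ LysoDC. It measured 5.02, 4.29 and 4.69 in LysoMac, 4.95, 4.41 and 4.73 in C5aR+ LysoDC and 4.69, 4.37 and 4.66 in C5aR- LysoDC, with array 2 lowest in each population.

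**Figure D3:**
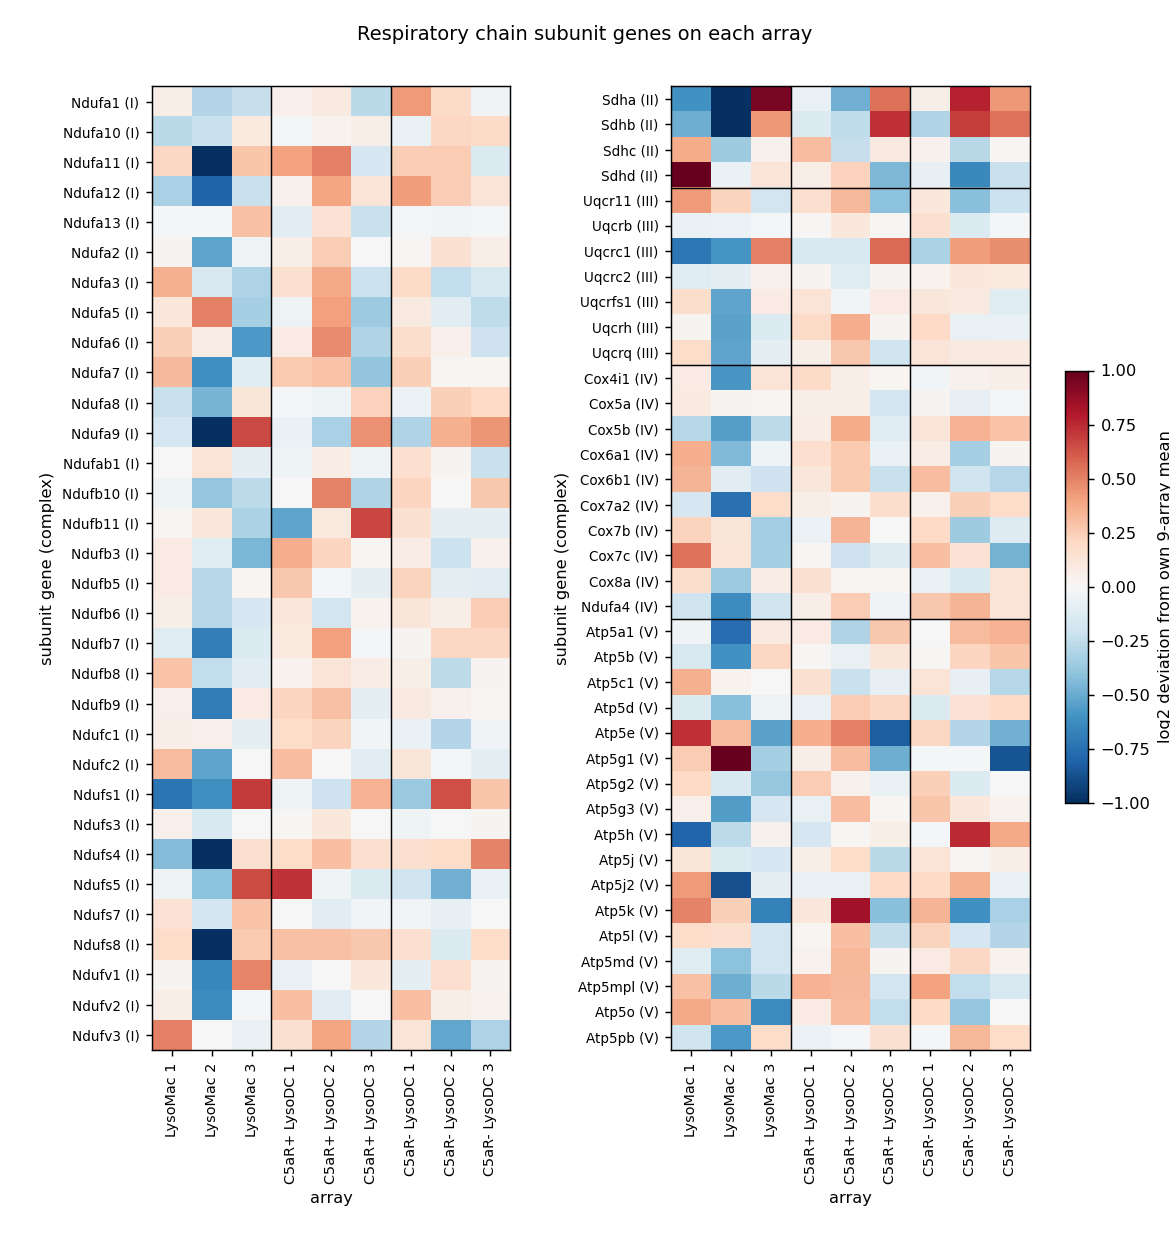
Each of the 70 subunit genes (rows, complex in brackets) on each of the 9 arrays (columns), as the log2 deviation from the gene's own 9-array mean; colours end at -1 and 1, and larger deviations take the end colour. The LysoMac 2 column is the bluest, lowest for 39 of 70 subunits, and Sdha runs from 6.32 on that array to 8.87 on LysoMac 3.

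In complex III, the cytochrome bc1 complex, Uqcrh and Uqcrc1 had the larger differences above 0 in C5aR+ LysoDC. Uqcrh, the hinge protein, measured 6.40, 5.83 and 6.24 in LysoMac, 6.56, 6.73 and 6.40 in C5aR+ LysoDC and 6.57, 6.30 and 6.30 in C5aR- LysoDC. The highest LysoMac array reached the lowest C5aR+ LysoDC array. The difference was 0.41 ± 0.18 in C5aR+ LysoDC (adjusted p = 0.801 by limma), and 0.25 without LysoMac array 2. Uqcrc1, a core protein, measured 7.68, 7.82 and 8.91 in LysoMac, 8.26, 8.25 and 8.97 in C5aR+ LysoDC and 8.09, 8.82 and 8.87 in C5aR- LysoDC, with 1 high LysoMac array. Uqcrb, named for the highest mean of the complex, stayed within 10.62 and 10.91 on all 9 arrays. Uqcr11 had the smallest p of the complex between C5aR- LysoDC and LysoMac, at -0.33 ± 0.24, and its populations overlapped.

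In complex IV, cytochrome c oxidase, the largest difference of any member was in Cox6b2, the isoform of subunit VIb best known from testis. Cox6b2 measured 3.92, 4.48 and 3.57 in LysoMac, 4.78, 5.07 and 4.85 in C5aR+ LysoDC and 4.69, 4.98 and 5.25 in C5aR- LysoDC. All 6 LysoDC arrays were above all 3 LysoMac arrays. It was 0.98 ± 0.24 (SE) higher in C5aR- LysoDC (95% confidence interval 0.44 to 1.52, 1.97-fold, adjusted p = 0.102 by limma) and 0.91 ± 0.24 higher in C5aR+ LysoDC (adjusted p = 0.608), so neither passed. Without LysoMac array 2, the highest of its population here, the difference in C5aR- LysoDC was 1.22 ± 0.20 (adjusted p = 0.0385). LysoMac values were little above the array medians, which ran from 3.39 to 3.65.

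Its common counterpart Cox6b1 gave no such separation. Cox6b1 measured 9.35, 8.91 and 8.81 in LysoMac, 9.13, 9.28 and 8.79 in C5aR+ LysoDC and 9.32, 8.82 and 8.73 in C5aR- LysoDC. The difference from LysoMac was 0.04 ± 0.22 in C5aR+ and -0.07 ± 0.22 in C5aR- LysoDC. The test of a difference between the isoforms' changes was not made, since each gene was fitted on its own.

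Cox5b and Ndufa4 were the other complex IV genes whose arrays lay apart from LysoMac in both LysoDC populations. Cox5b, a zinc-binding subunit, measured 8.66, 8.39 and 8.68 in LysoMac, 9.02, 9.31 and 8.82 in C5aR+ LysoDC and 9.07, 9.29 and 9.23 in C5aR- LysoDC. It was 0.62 ± 0.16 higher in C5aR- LysoDC (1.54-fold, adjusted p = 0.129 by limma) and 0.48 ± 0.16 higher in C5aR+ LysoDC (adjusted p = 0.763), with all LysoDC arrays above LysoMac. A second, dimmer Cox5b cluster differed by -0.12 in C5aR- LysoDC, so the clusters of this gene disagree in sign. Ndufa4 measured 9.33, 8.90 and 9.33 in LysoMac, 9.60, 9.78 and 9.49 in C5aR+ LysoDC and 9.80, 9.87 and 9.66 in C5aR- LysoDC, again without overlap. The differences were 0.59 ± 0.16 (adjusted p = 0.148) and 0.44 ± 0.16 (adjusted p = 0.793).

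The remaining isoforms differed by little. Cox4i1, named for the highest mean of complex IV, measured 11.03, 10.36 and 11.08 in LysoMac and between 10.92 and 11.13 on the 6 LysoDC arrays, while its hypoxia-linked isoform Cox4i2 differed from LysoMac by -0.30 ± 0.21 in C5aR+ and -0.07 ± 0.21 in C5aR- LysoDC. Of the heart and muscle isoforms, Cox6a2 differed from LysoMac by 0.27 ± 0.22 and 0.21 ± 0.22 and Cox7a1 by -0.16 ± 0.28 and -0.03 ± 0.28. The common forms Cox6a1, Cox7a2, Cox7b and Cox8a differed by 0.16, 0.33, 0.09 and 0.10 in C5aR+ LysoDC and by -0.04, 0.40, -0.10 and 0.01 in C5aR- LysoDC, with standard errors of 0.17 to 0.22. Without LysoMac array 2 the values of Cox7a2 were 0.08 and 0.15. Cox7a2l, which helps join complexes III and IV into supercomplexes, differed by 0.20 ± 0.22 and 0.13 ± 0.22. Cox8b, Cox8c, Cox7b2 and Ndufa4l2 had all 3 population means below every array median, as did Cox7c, Atp5j2 and both pseudogenes, so their differences are between values at the dim end of the arrays. Cox8b had the smallest p of the class between the LysoDC populations, at 0.28 ± 0.16.

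**Figure D4:**
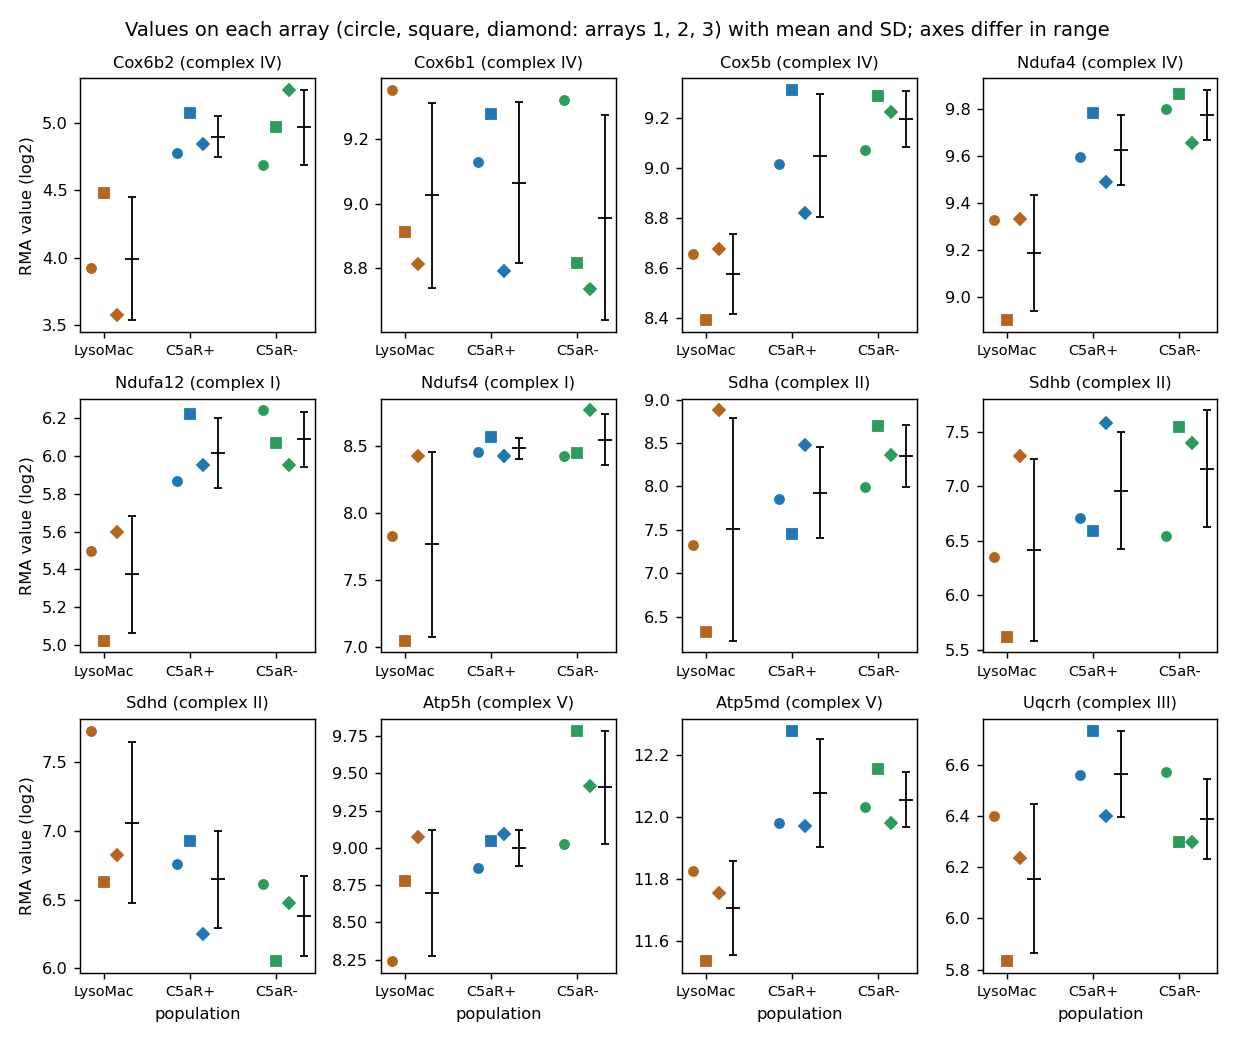
Log2 RMA values on each array for 12 members, by population (circle, square and diamond for arrays 1, 2 and 3), with the mean and SD of 3 arrays; vertical axes differ in range and do not start at 0. In Cox6b2, Cox5b, Ndufa4, Ndufa12 and Atp5md all LysoDC arrays lie above LysoMac, Cox6b1 overlaps throughout, and Sdha and Sdhb span most of their range within LysoMac.

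In complex V, the ATP synthase, Atp5h and Atp5md gave the smallest p-values. Atp5h, subunit d of the peripheral stalk, measured 8.24, 8.78 and 9.07 in LysoMac, 8.86, 9.05 and 9.09 in C5aR+ LysoDC and 9.02, 9.78 and 9.41 in C5aR- LysoDC. The highest LysoMac array exceeded the lowest C5aR- LysoDC array. The difference was 0.71 ± 0.25 in C5aR- LysoDC (1.63-fold, adjusted p = 0.267 by limma), and a second cluster, dim on all arrays, differed by 0.04. Atp5md, a small subunit that stabilises synthase dimers, measured 11.83, 11.54 and 11.76 in LysoMac, 11.98, 12.28 and 11.97 in C5aR+ LysoDC and 12.03, 12.16 and 11.98 in C5aR- LysoDC. All LysoDC arrays were above LysoMac, by 0.37 ± 0.15 and 0.35 ± 0.15 (adjusted p = 0.797 and 0.350).

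The catalytic subunits differed less from LysoMac than Atp5h did. Atp5b (beta) was 0.35 ± 0.20 and Atp5a1 (alpha) 0.46 ± 0.25 above LysoMac in C5aR- LysoDC, each with overlapping arrays and LysoMac array 2 lowest, at 10.27 and 9.37. Without that array the differences were 0.15 and 0.20. Atp5l, named for the highest mean of complex V, measured 12.32, 12.30 and 11.95 in LysoMac, 12.16, 12.44 and 11.90 in C5aR+ LysoDC and 12.36, 11.97 and 11.85 in C5aR- LysoDC. Of the c-ring genes, Atp5g1 was the most negative against LysoMac (-0.63 ± 0.38 in C5aR- LysoDC), with 5.59 on LysoMac array 2 and a difference of -0.26 without it, while Atp5g2 and Atp5g3 differed by 0.14 ± 0.18 and 0.37 ± 0.19. A list of 16 vacuolar proton pump genes, a related rotary enzyme that acidifies lysosomes, had 0 called by limma in the 3 comparisons (1, 2 and 3 genes at an unadjusted p under 0.05) and medians of 0.36 between C5aR+ and C5aR- LysoDC, 0.29 between C5aR+ LysoDC and LysoMac and -0.05 between C5aR- LysoDC and LysoMac.

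Genes around the chain gave the following. In the tricarboxylic acid cycle, 1 of 13 genes passed: Mdh2, the mitochondrial malate dehydrogenase, was 1.13 ± 0.19 higher in C5aR- LysoDC than in LysoMac (adjusted p = 0.0261 by limma). With 1 array left out the difference was 0.98 to 1.26 and the adjusted p 0.0287 to 0.127, above the threshold without LysoMac array 1 (0.0744) or 2 (0.0556), C5aR+ LysoDC array 2 (0.0527) or C5aR- LysoDC array 2 (0.127) or 3 (0.0925). Mdh2 measured 10.53, 10.06 and 10.51 in LysoMac, 10.98, 10.97 and 10.60 in C5aR+ LysoDC and 11.24, 11.59 and 11.66 in C5aR- LysoDC, 3 ranges that did not overlap. The median of that list in C5aR- LysoDC against LysoMac was 0.38, with 12 of 13 genes above 0. For all clusters with a mean above 7 it was 0.24, with 66.6% above 0. In C5aR+ LysoDC against LysoMac the list had a median of 0.14, with 11 of 13 genes above 0, beside 0.21 and 73.6% for such clusters. Cytochrome c (Cycs), which carries electrons from complex III to IV, measured 10.57, 10.52 and 10.42 in LysoMac, 10.85, 11.09 and 10.69 in C5aR+ LysoDC and 10.98, 10.88 and 10.93 in C5aR- LysoDC. All LysoDC arrays were above LysoMac, by 0.38 ± 0.14 (adjusted p = 0.793) and 0.43 ± 0.14 (adjusted p = 0.234).

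Of 41 assembly factors outside the member families, 0 passed in limma in any comparison (0, 2 and 3 at an unadjusted p under 0.05, in the order C5aR+ against C5aR- LysoDC, C5aR+ LysoDC against LysoMac and C5aR- LysoDC against LysoMac). Sco1, a copper chaperone of complex IV, measured 4.94, 4.82 and 5.18 in LysoMac, 4.46, 4.46 and 4.47 in C5aR+ LysoDC and 4.35, 4.52 and 4.35 in C5aR- LysoDC. It lay below LysoMac on every LysoDC array, by differences of -0.52 ± 0.14 (adjusted p = 0.597) and -0.58 ± 0.14 (adjusted p = 0.0890). Of 71 mitochondrial ribosome genes 0 passed in limma (2, 1 and 3 at an unadjusted p under 0.05), and their medians against LysoMac were 0.09 for the C5aR+ and 0.13 for the C5aR- cells. Among 16 regulators of mitochondrial biogenesis, 19 glycolysis genes and 9 nucleotide carriers or uncoupling proteins 0 passed in limma, with medians between -0.05 and 0.06. At an unadjusted p under 0.05 there were 2, 2 and 5 regulators, 1, 1 and 4 glycolysis genes and 0, 0 and 1 carriers. Of 25 cell cycle genes 6 passed as higher in C5aR- LysoDC than in LysoMac, with a median of 1.34, beside 0.14 for the respiratory subunits in the same comparison; the part of cycling cells in the subunit values was not tested.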

How the data were processed

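Total RNA of 3 sorted populations was hybridised to Affymetrix whole-transcript arrays, 3 per population, grouped by title (the source name of C5aR- LysoDC arrays 2 and 3 spells the receptor differently, as C6aR and C7aR, while their titles read C5aR). The deposited values are log2 RMA values, made by the authors with RMA in Affymetrix Power Tools per the submitters' processing notes; the sources used here give no versions. Between-array scaling in RMA assumes like distributions, yet array medians ran from 3.39 to 3.65. Symbols came from the platform annotation: 23521 clusters had 1 symbol, 1814 several and 8458 none. Array number limits the precision.

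Each cluster was fitted with 1 mean per population over all 9 arrays (limma 3.58.1, R 4.3.3; lmFit and eBayes, 6 residual degrees of freedom, two-sided), with Benjamini-Hochberg adjustment over 33793 clusters. The fit was tested on simulated data. Fold changes are 2 to the power of the log2 difference. Members and lists were chosen with earlier results of these data known. Genes named are, per complex and comparison, the smallest p, the brightest subunit, all of complex II and the isoforms; Ndufb7, Ndufs4, Ndufs8, Uqcrc1, Cox5b, Atp5a1, Atp5b, Atp5g1, Atp5g2 and Atp5g3 were added after their values were seen. Of each other list, genes past the threshold or else the smallest p-values were eligible.

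Replicate numbers are shared between populations. Deviations of same-numbered arrays correlated by 0.16, 0.26 and 0.41 between C5aR+ LysoDC and LysoMac, a pairing seen in the data and not given by a label. The standard errors, p-values and counts reported for this comparison are from the fit without a block and ignore the pairing. With the replicate number as a block 0 members passed there too. At an unadjusted limma p under 0.05, 5 members were then higher and 1 lower. The limma adjusted p of Cox6b2 was then 0.360. Alternatives covered scaling, dim clusters, symbols, variance, weights, samples in the fit, clusters per gene and each array left out.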

Additional observations from a re-analysis of the deposited data

How the results depend on the processing

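Over 19 other settings, the count of members passing the test stayed at 0 in the F test and in both comparisons with C5aR+ LysoDC. For C5aR- LysoDC against LysoMac it ranged from 0 to 1 when 1 array was left out: 1 without LysoMac array 2 (Cox6b2, 1.22 ± 0.20, limma adjusted p = 0.0385) and 1 without LysoMac array 3 (Ndufs4, 1.11 ± 0.23, adjusted p = 0.0453). The cause was not tested. The adjusted p of the member nearest the threshold in that comparison was 0.0526 (Cox6b2) after median centring and 0.0603 (Ndufaf7) after quantile normalization. Median centring gave subunit medians of 0.21 in both comparisons with LysoMac; leaving out LysoMac array 1 gave 0.22 and 0.25. Between the LysoDC populations the median ran from -0.02 to 0.07 over arrays left out. Of 1755 values of 93 named differences under alternatives, 95 changed sign, in 41 differences, each of at most 0.42 in size as reported. The replicate number as a block left 0 members called in each comparison. Same-numbered arrays correlated by 0.23, -0.03 and 0.20 between the LysoDC populations and 0.17, -0.11 and 0.13 between C5aR- LysoDC and LysoMac, where 4 and 2 of 6 arrays correlated best with their own number, so only the number is shared there. With 3 arrays a group, differences as large as 0.98 (Cox6b2) did not pass.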

Other observations

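Some subunits followed 1 of 2 orders of arrays that cut across the populations, seen after the values were examined and given without a test. For 13 of 70 subunits the 4 highest arrays were LysoMac 3, C5aR+ LysoDC 3, C5aR- LysoDC 2 and C5aR- LysoDC 3: Ndufa10, Ndufa8, Ndufa9, Ndufs1, Ndufv1, Sdha, Sdhb, Uqcrc1, Cox7a2, Atp5a1, Atp5b, Atp5h and Atp5pb. This was 18.6% of subunits, beside 3.55% of all clusters and a similar 16.2% of bright clusters. For 11 others the same 4 arrays were the lowest: Ndufa3, Ndufa5, Ndufa6, Ndufv3, Uqcr11, Cox5a, Cox6b1, Atp5e, Atp5k, Atp5l and Atp5o, which was 15.7% of subunits, beside 3.82% of all clusters and 5.43% of bright clusters. The same 4 arrays, in the order named, had the lowest array medians: 3.39, 3.42, 3.43 and 3.46, against 3.49 to 3.65 on the others. Bright clusters deviated most upward on them, by 0.13, 0.11, 0.09 and 0.10, against at most 0.04 on the others. The part of array scaling or quality in these orders was not tested. Sdha and Atp5k show the range: Sdha measured 8.87 and Atp5k 7.31 on LysoMac array 3, against 7.32 and 8.49 on LysoMac array 1.

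The genes outside the chain whose values most followed the mean of the subunits over 9 arrays were Cdc26 (Pearson r = 0.977), Tceanc (0.968), Tpgs2 (0.966), Rpl6 (0.963) and Cacul1 (0.962). The 9 arrays share scaling and include LysoMac array 2. Over the other 8 arrays r was 0.841 for Cdc26, 0.765 for Tceanc, 0.734 for Tpgs2, 0.807 for Rpl6 and 0.681 for Cacul1. Among the subunits themselves, each of which is part of that mean, 38 of 70 had an r above 0.5 with it and 7 an r below 0. These counts are over all 9 arrays and were not repeated without LysoMac array 2.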
